A study of Mus musculus with 18 samples.

Results

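The potassium channel genes described here are the protein-coding mouse genes whose symbol starts with Kcn, found by mapping the Ensembl identifiers of the deposited count table to GENCODE symbols. They number 94 of the 21627 protein-coding genes and 55414 genes in the table. Of these, 40 had enough counts to be tested and 54 did not. RNA-seq was done in N2A (Neuro-2a) cells, a mouse neuroblastoma line, 72 h after transfection with 1 of 6 siRNAs, and the RNA was depleted of rRNA. In a KD (knockdown), a siRNA, a short RNA duplex, leads to cleavage of the mRNA it pairs with. The groups were Scramble KD (2 non-targeting control siRNAs), *Fmr1* KD (2 siRNAs against the mRNA of the RNA-binding protein FMRP) and *Zfp598* KD (2 siRNAs against the mRNA of a ubiquitin ligase of no-go decay, which recognises collided ribosomes). The siRNAs of a condition are called A and B, and each had 3 libraries, giving 6 per condition and 18 in all. All libraries come from 1 cell line, and every one of them, the controls included, had been transfected with a siRNA. Errors therefore describe the spread between these libraries of 1 line.

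Potassium channels set the resting potential of a cell, end its action potentials and, in neuronal cells, tune how readily it fires. Voltage-gated subunits (Kcna to Kcnd, Kcnh, Kcnq) open on depolarisation, calcium-activated subunits (Kcnma1, Kcnn) open when calcium rises, inward rectifiers (Kcnj) and two-pore channels (Kcnk) hold the resting potential, and auxiliary subunits (Kcnab, Kcnip, Kcnmb, Kcne) change the gating or the transport of the pore. FMRP has been linked to these channels in neurons both as a binding partner of channel proteins, among them the sodium-activated channel Slack (Kcnt1) and the BK subunit β4 (Kcnmb4), and through binding of mRNAs such as that of Kv3.1 (Kcnc1).

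Both siRNA targets were lowered in their own libraries. The log2 fold change of *Fmr1* was -1.60 (siRNA A) and -1.30 (siRNA B), and that of *Zfp598* was -1.54 (siRNA A) and -1.52 (siRNA B). The mean level of *Fmr1* was 55.1 ± 4.09 and 65.3 ± 3.45 CPM in Scramble siRNA A and B and 18.2 ± 3.37 and 26.5 ± 1.25 CPM in *Fmr1* siRNA A and B (SD, n = 3), and that of *Zfp598* was 117 ± 12.2 and 119 ± 8.36 CPM in Scramble siRNA A and B and 40.6 ± 8.29 and 41.5 ± 1.90 CPM in *Zfp598* siRNA A and B. The depth was 7674724 to 15414590 counts per library, and a single feature without a GENCODE entry took 5.00% to 25.8% of the counts, most in *Zfp598* siRNA A replicate 3. Markers of a neuroblastoma line (Tubb3, Chga, Hand2) were present in every library, whereas Nefl and Nefm, which mark mature neurons, were under 0.1 CPM on average. Here CPM is the count scaled to a common library size (edgeR, with TMM factors). *Fmr1* siRNA B replicate 1 stood apart from all other libraries. It held the stem cell markers Zfp42 at 6.88 CPM and Nanog at 7.42 CPM, against at most 0.0730 and 0.592 CPM elsewhere, and 11.6 CPM in 4 Y-linked genes, against at most 0.149 CPM. Calls of the members named with that siRNA are given with and without it below.

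N2A cells expressed a small set of potassium channels strongly and many at trace levels. To compare genes, levels were divided by exon length, as CPM per kilobase of exon. *Kcnh2*, which encodes the ERG1 channel that repolarises excitable cells, was the highest in Scramble KD, with 27.0 ± 4.74 CPM per kilobase (SD, n = 6). Its lowest Scramble KD library (21.2 CPM per kilobase) was above the Scramble KD libraries of every other member. *Kcnk3*, the acid-sensitive background channel TASK-1, followed with 11.7 ± 3.01 CPM per kilobase (SD, n = 6). *Kcnab2*, the Kvβ2 subunit of Kv1 channels, was also among the 5 highest, with 8.19 ± 0.463 CPM per kilobase (SD, n = 6). The 5 highest members held 62.7% of the summed CPM per kilobase of all members.

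The following 7 members in the order lay between 1.64 and 4.26 CPM per kilobase. They were *Kcnh4* (an ELK-type voltage-gated channel, 4.26 ± 0.390), *Kcnj12* (the inward rectifier Kir2.2, 3.63 ± 0.429), *Kcnab1* (Kvβ1, 3.44 ± 0.386), *Kcnn3* (the small-conductance calcium-activated channel SK3, 2.64 ± 0.744), *Kcnip3* (the calcium sensor KChIP3, 2.61 ± 0.191), *Kcnc1* (Kv3.1, 2.49 ± 0.342) and *Kcnq5* (Kv7.5, 1.64 ± 0.263). *Kcnj12* and *Kcnab1*, *Kcnn3* and *Kcnip3*, and *Kcnip3* and *Kcnc1* were neighbours that differed by less than their SD. In all, 17 tested members exceeded 1 CPM per kilobase. By family, 14 of 40 voltage-gated subunits, 6 of 8 calcium- or sodium-activated subunits, 5 of 15 inward rectifiers, 6 of 14 two-pore channels and 9 of 17 auxiliary subunits were tested. These families were assigned from the symbol alone, so a family name need not describe the gating of every member in it. The voltage-gated family held the most signal, 56.3 CPM per kilobase in sum, against 18.2 for the auxiliary subunits, 15.3 for the two-pore channels, 6.52 for the calcium- or sodium-activated and 5.61 for the inward rectifiers.

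**Figure D1:**
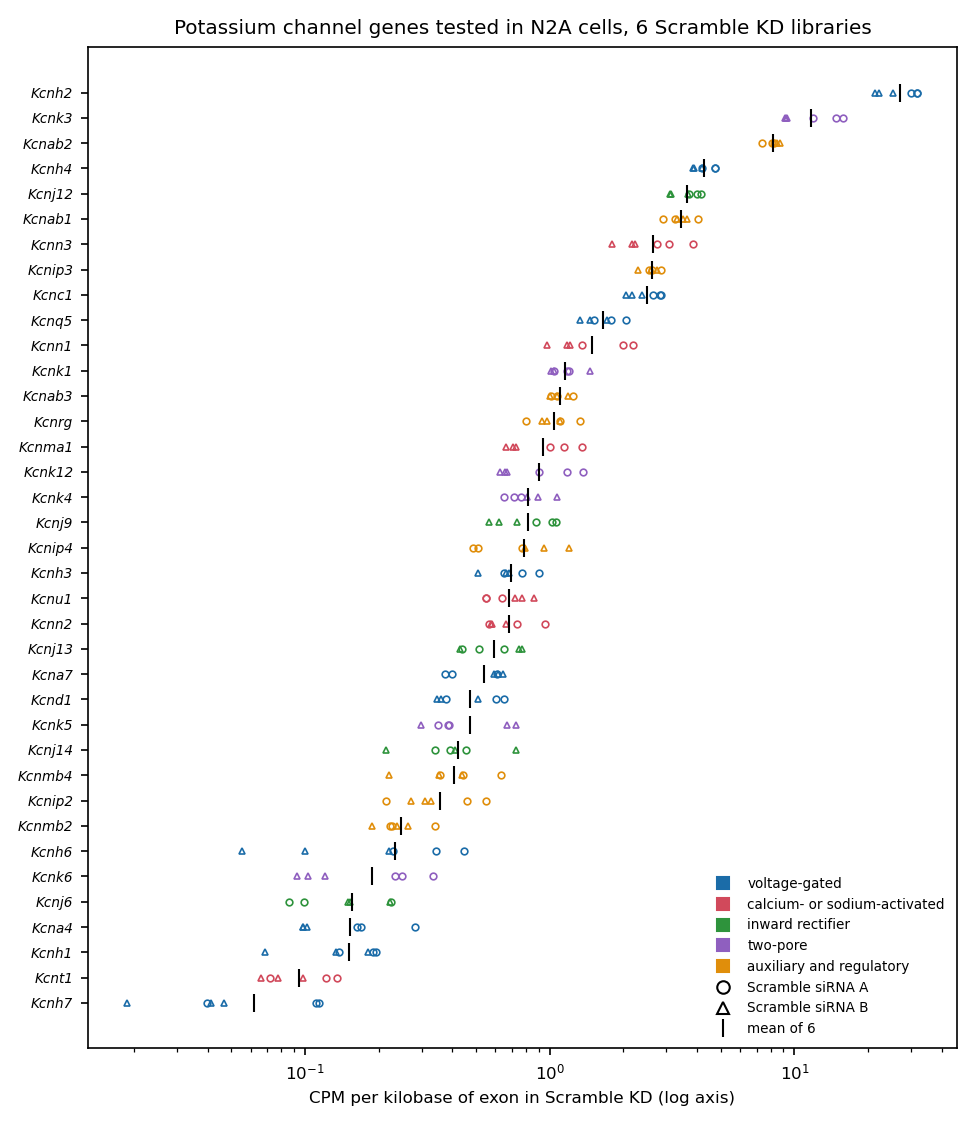
Level of 37 of the 40 tested members in the 6 Scramble KD libraries, as CPM per kilobase of exon on a log axis. Circles are Scramble siRNA A libraries, triangles Scramble siRNA B libraries and bars their mean. Kcnh2 at 27.0 stands above all others, and Kcnmb2 lies near the bottom at 0.246.

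The subunits that form a channel together were not all detected. All 3 Kvβ genes were tested, but of the Kv1 pore genes they join only *Kcna4* and *Kcna7* were, and *Kcna1*, *Kcna3* and *Kcna5* had 0 counts in all 18 libraries. Likewise *Kcnip2*, *Kcnip3* and *Kcnip4*, partners of Kv4 channels, were tested. Among the Kv4 pores, *Kcnd1* was tested (0.474 ± 0.132 CPM per kilobase), *Kcnd2* had 0 counts, and *Kcnd3* had at most 4 counts outside *Fmr1* siRNA B replicate 1. *Kcnq3*, a subunit of M-type channels, had 8 counts in the 17 other libraries together. BK channels had their pore gene *Kcnma1* (0.935 ± 0.281 CPM per kilobase) with 2 tested β subunits, *Kcnmb4* (0.407 ± 0.137) and *Kcnmb2* (0.246 ± 0.0522), while *Kcnmb3* had 52 counts and *Kcnmb1* 3 counts over all 18 libraries. The other members without a count were *Kcnj2*, *Kcnj5*, *Kcnj8*, *Kcnj15*, *Kcnj16*, *Kcnk10* and *Kcnv1*, so that 11 members had none. A count of 0 allows a level of up to 0.192 to 0.534 CPM (3 counts), depending on the library. At the edge of the filter, the tested members with the fewest counts were *Kcna4* (mean 11.8 per library), *Kcnh1* (13.7) and *Kcnh6* (15.1), and those just left out were *Kcnk7* (6.28), *Kcnj10* (5.67) and *Kcnn4* (5.11).

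*Kcnmb2* encodes the β2 subunit of the BK channel, which makes the channel inactivate after it opens, and lies on the forward strand of chromosome 3 of GRCm39 from 31956656 to 32254329. It is among the transcripts that the study selected as raised in both KDs, from these same libraries, so its direction here is not independent evidence. The study then repeated the KDs and measured mRNA levels by RT-qPCR, a PCR of RNA copied into DNA. *Kcnmb2* is not among the transcripts that the study names as reproducible there with both independent siRNAs. *Kcnh2* was the most highly expressed member. To show how their start sites differ, the promoters of both genes are printed from 270 bases before to 30 after the start of the main GENCODE transcript (GRCm39, in the direction of the gene). Capitals mark matches on either strand to the 4 motifs searched, namely the GC box (GGGCGG), the CAAT box (CCAAT), the TATA box (TATAAA) and the E box (CACGTG), none of which overlap here.
Kcnmb2, chr3:31956386-31956685, forward strand: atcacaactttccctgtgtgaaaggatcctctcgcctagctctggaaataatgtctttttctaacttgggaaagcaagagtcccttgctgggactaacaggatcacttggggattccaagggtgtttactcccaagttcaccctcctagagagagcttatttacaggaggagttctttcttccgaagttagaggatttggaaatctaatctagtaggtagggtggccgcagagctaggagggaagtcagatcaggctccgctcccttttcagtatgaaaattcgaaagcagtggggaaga
Kcnh2, chr5:24556733-24557032, reverse strand: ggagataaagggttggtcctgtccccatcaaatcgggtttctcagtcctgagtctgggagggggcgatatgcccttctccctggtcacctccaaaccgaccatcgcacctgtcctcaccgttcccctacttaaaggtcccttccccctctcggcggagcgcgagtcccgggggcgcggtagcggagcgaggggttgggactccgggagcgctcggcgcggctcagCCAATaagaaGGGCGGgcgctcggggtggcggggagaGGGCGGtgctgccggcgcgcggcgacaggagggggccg

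The *Kcnh2* promoter held 2 GC boxes and 1 CCAAT, with 68.3% GC and 30 CpG dinucleotides, whereas that of *Kcnmb2* (46.7% GC, 5 CpG) held none of the 4 motifs in this window. Among all 21627 promoters of the same length, 41.2% held GGGCGG, 40.4% CCAAT, 13.6% TATAAA and 7.66% CACGTG. Over the tested members these shares were 42.5%, 30% (12 of 40), 7.5% and 5% (2 of 40). The median GC content was 58.0% in the tested members, 58.7% in all 94 and 53.7% in all promoters.

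A first question was which members changed when the 6 libraries of each KD were compared with the 6 of Scramble KD, as the study did. A member passed when its p-value, adjusted by Benjamini-Hochberg over all 17901 genes tested, was under 0.05 in the quasi-likelihood test of edgeR. In *Fmr1* KD, *Kcnk6* (the two-pore channel TWIK-2) and *Kcnh4* were higher and *Kcnab2* was lower. This is 2 of 40 higher, where 2.73% of all tested genes were, and 1 of 40 lower, where 3.80% were. The log2 fold changes were 1.50 (SE 0.426, adjusted p = 0.0390) for *Kcnk6* in edgeR. They were 0.40 (SE 0.0926, adjusted p = 0.0123) for *Kcnh4* and -0.43 (SE 0.123, adjusted p = 0.0402) for *Kcnab2* in the same edgeR test. In *Zfp598* KD *Kcnab2* was lower as well, with a log2 fold change of -0.53 (SE 0.123, adjusted p = 0.0290) in edgeR, and 0 members were higher. That is 1 of 40 lower, against 1.04% of all genes, and 0 of 40 higher, against 0.916%. At an unadjusted p under 0.05, 5 members differed in *Zfp598* KD in either direction, and DESeq2 called 1 higher. Over the 40 members the median log2 fold change was 0.13 for *Fmr1* KD (0.00 over all genes) and 0.03 for *Zfp598* KD (0.01 over all genes).

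Larger and often opposite changes were found for single siRNAs. For these, each KD siRNA was compared with the Scramble siRNA of its letter, 3 libraries against 3, in 1 model of all 18 libraries. The letter is only a label, so the pairing of a KD siRNA with a Scramble siRNA is arbitrary. *Fmr1* siRNA A lowered 11 of 40 members (13.6% of all genes) and raised 2 (10.0%), while *Fmr1* siRNA B raised 16 (11.3%) and lowered 1 (11.3%). *Zfp598* siRNA A, whose replicates were the least alike, raised 1 member (6.30%) and lowered 4 (5.64%). With *Zfp598* siRNA B 8 rose (12.4%) and 4 fell (14.4%). The medians over the 40 members were -0.21, 0.32, -0.03 and 0.15, against 0.01, 0.00, 0.01 and -0.01 over all genes. In these comparisons 25 members passed at least once and 15 never did, among the latter *Kcnq5*, *Kcnip3*, *Kcnn2* and *Kcnk1*. The share of all genes that passed at least once was not counted, so the 25 are not read as a trait of channel genes. Against the mean of both Scramble siRNAs, *Kcnip3* was lower with *Fmr1* siRNA A (-0.32, adjusted p = 0.0477, edgeR). *Kcnk1* was lower there with *Zfp598* siRNA B (-0.76, adjusted p = 0.0462, edgeR), while *Kcnq5* and *Kcnn2* did not pass with any KD siRNA. Over the 6 groups at once 24 of 40 members differed, where 63.3% of all tested genes did, so the share of members that varied was close to that of other genes.

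**Figure D2:**
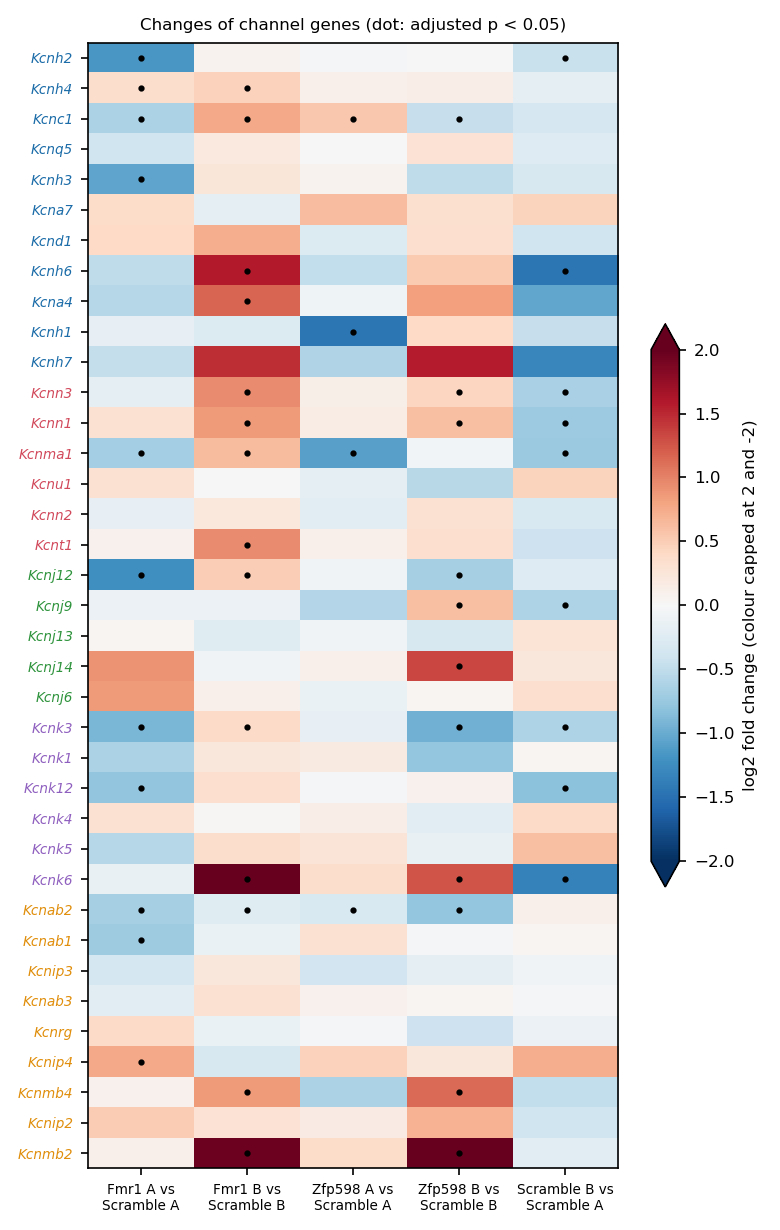
Log2 fold change of 37 of the 40 tested members in the 4 same-letter comparisons and between the Scramble siRNAs. Red is higher, blue lower, and a dot marks an adjusted p under 0.05. Most dots of the Fmr1 siRNA B column lie on red and most of the Fmr1 siRNA A column on blue, while Kcnab2 is lower in all 4 KD columns.

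The control siRNAs themselves differed, which enters every same-letter value. Scramble siRNA B was lower than Scramble siRNA A in 11 of 40 members (12.2% of all genes) and higher in 0 (10.4%), with 16 members under an unadjusted p of 0.05 and 0 higher and 11 lower in DESeq2. Among the 11 were *Kcnh6*, *Kcnk6*, *Kcnk12*, *Kcnma1*, *Kcnn1*, *Kcnn3*, *Kcnk3*, *Kcnj9* and *Kcnh2*, with log2 fold changes of -1.45 to -0.44. The neuronal marker list of 12 genes moved in the same direction, from a summed level of 1754 to 1850 CPM in Scramble siRNA A to 1039 to 1174 CPM in Scramble siRNA B, and was 1176 to 1312 CPM with *Fmr1* siRNA A, 1277 to 1480 with *Fmr1* siRNA B, 1520 to 1701 with *Zfp598* siRNA A and 1333 to 1512 with *Zfp598* siRNA B. Its summed level was thus below the Scramble siRNA of the same letter with *Fmr1* siRNA A and above it with *Fmr1* siRNA B, as were most members that passed there, and its part in these differences was not tested. The stem cell marker list went the other way, from 72.7 to 83.9 CPM in Scramble siRNA A to 133 to 144 CPM in Scramble siRNA B and 175 to 189 CPM with *Fmr1* siRNA A. Nearly all of it outside *Fmr1* siRNA B replicate 1 was *Lin28a*. The fibroblast list was 9.98 to 11.1 CPM in Scramble siRNA A, 6.46 to 7.31 in Scramble siRNA B, 14.7 to 19.0 with *Fmr1* siRNA A and 12.1 to 14.9 with *Fmr1* siRNA B, and the part of both lists was not tested either. Most of the fibroblast sum was *Pdgfra* in every library, and *Lum* was at 0 CPM. In the neuronal list, *Tubb3* was at 302 to 325 CPM in Scramble siRNA B and 488 to 511 CPM with *Fmr1* siRNA B. *Syp* overlapped between these groups (24.6 to 30.5 and 22.3 to 28.4 CPM). In bulk RNA, fewer cells of a type and less RNA per cell cannot be told apart. Against the mean of both Scramble siRNAs, 2 members were higher and 8 lower with *Fmr1* siRNA A (13.7% and 15.5% of all genes). With *Fmr1* siRNA B 9 were higher and 0 lower (10.1% and 10.3%), where *Kcnab2* stood at -0.19 with an adjusted p of 0.0729 in edgeR. With *Zfp598* siRNA A 4 were higher and 2 lower (10.9% and 7.23%), and with *Zfp598* siRNA B 3 were higher and 7 lower (13.8% and 16.1%). Rises outnumbered falls with *Fmr1* siRNA B, and falls outnumbered rises with *Fmr1* siRNA A, against either control, while with both *Zfp598* siRNAs the balance changed with the control. The median over the members, -0.21 with *Fmr1* siRNA A against Scramble siRNA A, was 0.03 against the mean of both.

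*Kcnmb2* rose with siRNA B of both targets and passed with neither siRNA A. Its level was 0.793, 1.19 and 0.779 CPM in the libraries of Scramble siRNA A and 0.922, 0.657 and 0.831 CPM in those of Scramble siRNA B. With *Fmr1* siRNA A it was 0.608, 1.43 and 0.962 CPM and with *Fmr1* siRNA B 3.51, 2.94 and 3.02 CPM. With *Zfp598* siRNA A it was 1.58, 1.07 and 0.712 CPM and with *Zfp598* siRNA B 2.61, 3.12 and 4.26 CPM. All 6 libraries of the 2 KD siRNAs B lay above the 12 others, and those of the 2 KD siRNAs A overlapped with Scramble KD. The rise was 3.88-fold with *Fmr1* siRNA B (log2 fold change 1.96, SE 0.323, adjusted p = 1.64e-04, edgeR) and 4.08-fold with *Zfp598* siRNA B (2.03, SE 0.325, adjusted p = 1.02e-04, edgeR). With siRNA A the values were 0.10 (SE 0.364, adjusted p = 0.883) and 0.36 (SE 0.379, adjusted p = 0.585) in edgeR, with 95% intervals (normal) of -0.61 to 0.82 and -0.38 to 1.10. The effects of the 2 siRNAs differed by 1.86 (SE 0.492, adjusted p = 0.00931) for *Fmr1* and by 1.67 (SE 0.503, adjusted p = 0.0219) for *Zfp598* (edgeR interaction tests). The Scramble siRNAs did not separate this gene (log2 fold change -0.20, 95% interval -0.94 to 0.53), and against the mean of both the rises with siRNA B were 1.85 and 1.92.

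Pooled over both siRNAs, *Kcnmb2* had log2 fold changes of 1.26 (SE 0.417, adjusted p = 0.0760) in *Fmr1* KD and 1.40 (SE 0.422, adjusted p = 0.0827) in *Zfp598* KD, neither of which passed in edgeR. DESeq2 gave adjusted p = 0.0396 and 0.0322 for the same contrasts, and edgeR with the siRNA letter as a second term gave 0.0347 and 0.0355. The letters only tell the siRNAs of a condition apart, and the labels do not link siRNAs of the same letter across conditions. A letter term takes up part of the difference between siRNAs A and B, so its p-values do not measure the spread between siRNAs. A two-sided exact permutation test of the 6 against 6 libraries on log2(CPM + 0.5) gave p = 0.0541 and 0.0260 (adjusted over the 42 tests of this family, 0.207 and 0.162). These values rest on 4 to 52 counts per library. The permutation test exchanges single libraries, whichever siRNA they had, so its p-values do not measure the spread between siRNAs. Without *Fmr1* siRNA B replicate 1 the rise with that siRNA was 1.88 (adjusted p = 0.0010, edgeR).

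The BK pore gene changed with 3 of the 4 KD siRNAs. *Kcnma1*, the pore, had 17.1, 23.1 and 19.5 CPM in Scramble siRNA A and 11.3, 12.4 and 12.1 CPM in Scramble siRNA B. With the *Fmr1* siRNAs it was at 12.8, 14.3 and 10.1 CPM (A) and 19.3, 19.4 and 16.5 CPM (B). With the *Zfp598* siRNAs it was at 12.7, 7.46 and 7.12 CPM (A) and 12.1, 11.8 and 10.6 CPM (B). The highest libraries were those of Scramble siRNA A and *Fmr1* siRNA B, which overlap. *Kcnma1* fell with *Fmr1* siRNA A (-0.68, SE 0.170, adjusted p = 0.00570, edgeR) and *Zfp598* siRNA A (-1.08, SE 0.182, adjusted p = 6.25e-04, edgeR) against Scramble siRNA A. It rose with *Fmr1* siRNA B (0.63, SE 0.170, adjusted p = 0.0105, edgeR) against the lower Scramble siRNA B. Against the mean of both Scramble siRNAs, it passed as lower with *Zfp598* siRNA A (-0.71) and siRNA B (-0.42) and in neither direction with the *Fmr1* siRNAs.

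*Kcnmb4*, the neuronal β4 subunit, rose with *Zfp598* siRNA B, by 1.13 (SE 0.296, adjusted p = 0.00724) in edgeR. Its libraries there held 5.36, 3.76 and 4.26 CPM, against 2.63, 1.31 and 2.11 CPM in Scramble siRNA B and 2.64, 3.78 and 2.12 CPM in Scramble siRNA A. With *Fmr1* siRNA B it was at 3.78, 3.85 and 3.36 CPM (0.85, SE 0.297, adjusted p = 0.0447, edgeR), and with *Fmr1* siRNA A at 3.79, 2.85 and 2.44 CPM. *Zfp598* siRNA A gave 2.26, 2.13 and 0.712 CPM. Every library of both KD siRNAs B was above those of Scramble siRNA B, and both groups reached into the range of Scramble siRNA A. Against the mean of both Scramble siRNAs the *Zfp598* siRNA B value remained (0.89, adjusted p = 0.00980, edgeR) and that of *Fmr1* siRNA B did not pass (0.60, adjusted p = 0.0964, edgeR). Without *Fmr1* siRNA B replicate 1 the latter comparison with Scramble siRNA B alone gave 0.83 (adjusted p = 0.0984, edgeR), and its call was lost without 8 of the 18 libraries in turn. Exon bases shared with another gene, nearly always on the opposite strand, were found in 22 of the 40 tested members, among them *Kcnmb4* (18.8% of its exon length), *Kcnab2* (7.45%), *Kcnma1* (6.26%) and *Kcnk3* (2.47%). Reads there cannot be assigned to 1 gene with certainty, since the strand setting was not stated. *Kcnmb2*, *Kcnk6*, *Kcnh2*, *Kcnh4*, *Kcnj12*, *Kcnj14* and *Kcnc1* share no exon base with another gene.

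Of the small-conductance channels, *Kcnn3* had 32.2, 40.3 and 28.7 CPM in Scramble siRNA A and 22.7, 23.4 and 18.7 CPM in Scramble siRNA B. It was at 36.8, 44.5 and 43.1 CPM with *Fmr1* siRNA B and at 29.6, 29.3 and 27.9 CPM with *Zfp598* siRNA B. Both groups lay above all Scramble siRNA B libraries, by 0.94 (SE 0.136, adjusted p = 4.01e-05) and 0.42 (SE 0.138, adjusted p = 0.0284) in edgeR, and both overlapped with Scramble siRNA A. Against the mean of both Scramble siRNAs the *Fmr1* siRNA B rise passed (0.62) and that of *Zfp598* siRNA B did not (0.10). With the siRNAs A *Kcnn3* was at 29.1, 32.6 and 27.3 CPM (*Fmr1*) and 43.8, 32.3 and 33.1 CPM (*Zfp598*), neither of which passed against Scramble siRNA A, and the latter passed as higher against both (0.44, adjusted p = 0.0149, edgeR). The *Zfp598* siRNA B call of *Kcnn3* was lost without any of 4 libraries in turn, namely the 3 of that siRNA and Scramble siRNA B replicate 3 (adjusted p up to 0.1246, edgeR). *Kcnn1* (SK1) rose by 0.85 and 0.60 with *Fmr1* and *Zfp598* siRNA B, the latter call being lost without Scramble siRNA B replicate 3 (adjusted p = 0.0687, edgeR). Against the mean of both Scramble siRNAs *Kcnn1* was higher with *Fmr1* siRNA A (0.67), *Fmr1* siRNA B (0.49) and *Zfp598* siRNA A (0.50), and the *Zfp598* siRNA B value did not pass (0.24, adjusted p = 0.234, edgeR). *Kcnt1*, the channel Slack, passed with *Fmr1* siRNA B (0.95, adjusted p = 0.0466, edgeR). *Kcnt1* had 6 to 38 counts per library and 2.56, 1.19 and 1.44 CPM with *Fmr1* siRNA B, the highest in replicate 1, against 0.856, 0.730 and 1.09 CPM in Scramble siRNA B, and its call was lost without any of 13 libraries in turn, that replicate included (adjusted p up to 0.295, edgeR). *Kcnn1*, *Kcnt1* and, below, *Kcnip4*, *Kcnj9* and *Kcnk12* lie outside the rule for named genes and were chosen after their values were seen.

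Among the voltage-gated subunits, 5 of the 14 tested fell with *Fmr1* siRNA A, where 13.6% of all genes did, and 7 rose with *Fmr1* siRNA B, where 11.3% did. Scramble siRNA B was itself below Scramble siRNA A in 4 of the 14. *Kcnh2* fell the most of the highly expressed ones. It had 164, 156 and 165 CPM in Scramble siRNA A and 65.7, 73.0 and 78.0 CPM with *Fmr1* siRNA A, which was also below every library of the 5 other groups. In Scramble siRNA B it had 115, 131 and 110.1 CPM and with *Fmr1* siRNA B 113, 128 and 135 CPM. The change was -1.16 (SE 0.102, adjusted p = 9.83e-08) in edgeR with *Fmr1* siRNA A, or 0.447-fold, and 0.08 with *Fmr1* siRNA B, a difference of 1.24 (SE 0.142, adjusted p = 3.29e-06) between the siRNAs (edgeR interaction). With the *Zfp598* siRNAs it was at 136, 159 and 179 CPM (A) and 113, 126 and 117 CPM (B), which overlap with the Scramble siRNA of their letter.

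*Kcnc1*, whose Kv3.1 channel allows fast firing, moved in opposite directions with the siRNAs of each target. It was at 28.8, 27.0 and 29.0 CPM in Scramble siRNA A and 20.9, 22.0 and 24.3 CPM in Scramble siRNA B. The *Fmr1* siRNAs gave 18.1, 16.9 and 19.6 CPM (A) and 38.3, 37.2 and 38.7 CPM (B). The *Zfp598* siRNAs gave 30.4, 43.1 and 51.1 CPM (A) and 16.8, 15.2 and 17.0 CPM (B). *Fmr1* siRNA A and *Zfp598* siRNA B libraries were below all Scramble KD libraries, and *Fmr1* siRNA B and *Zfp598* siRNA A libraries were above them. The log2 fold changes were -0.63 and 0.76 for the *Fmr1* siRNAs A and B and 0.54 and -0.46 for those of *Zfp598*, all of which passed in edgeR. The differences between siRNAs were 1.40 (SE 0.188, adjusted p = 1.87e-05) and -0.99 (SE 0.192, adjusted p = 8.25e-04) in edgeR interaction tests. The same 4 directions were found against the mean of both Scramble siRNAs (-0.47, 0.60, 0.70 and -0.62, each passing). Against the Scramble siRNA of the same letter, the *Zfp598* siRNA A call was lost without its replicate 2 or 3 or Scramble siRNA A replicate 2 (adjusted p up to 0.0714, edgeR), and the *Zfp598* siRNA B call without its replicate 2 or Scramble siRNA B replicate 3 (up to 0.0892). In the 3 *Zfp598* siRNA A libraries the most counted feature took 5.67%, 15.2% and 25.8% of the counts, with *Kcnc1* highest where that share was highest. The part of this share was not tested. Removing the feature left the call in place, but it changes no count of another gene and so cannot decide this.

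*Kcnh4* was the member that rose with both *Fmr1* siRNAs against the Scramble siRNA of their letter. It had 25.6, 25.8 and 22.8 CPM in Scramble siRNA A and 22.8, 20.9 and 21.2 CPM in Scramble siRNA B. With *Fmr1* siRNA A it had 32.2, 31.2 and 31.2 CPM and with siRNA B 30.4, 29.3 and 29.2 CPM. All 6 *Fmr1* KD libraries lay above all 6 of Scramble KD (p = 0.00216 in an exact two-sided permutation test, which is the least that 6 against 6 can give, and 0.0455 adjusted over the family). This test exchanges single libraries, whichever siRNA they had, and its p-value does not measure the spread between siRNAs. The log2 fold changes were 0.35 (SE 0.0951, adjusted p = 0.00978) and 0.45 (SE 0.0955, adjusted p = 0.00154) in edgeR, and those of the *Zfp598* siRNAs were 0.11 and 0.13. The *Fmr1* siRNA A call was lost without Scramble siRNA A replicate 3 (adjusted p = 0.0607, edgeR). Against the mean of both Scramble siRNAs both rises passed, as did those of *Kcnn1*.

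*Kcnh3* (an ELK-type channel) fell with *Fmr1* siRNA A, with a log2 fold change of -1.06 (SE 0.274, adjusted p = 0.00739) in edgeR, and, at 65.8 counts per library on average, lost its call without *Fmr1* siRNA A replicate 2. Against the mean of both Scramble siRNAs, *Kcnh3* was lower with *Fmr1* siRNA A (-0.90) and *Zfp598* siRNA B (-0.67, adjusted p = 0.0430, edgeR). It passed with neither *Fmr1* siRNA B nor *Zfp598* siRNA A there.

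The weakly expressed *Kcnh6* (ERG2), *Kcna4* (Kv1.4) and *Kcnh1* (EAG1) also passed with over 2-fold changes, on 2 to 29 counts per library. *Kcnh6* had 0.461, 1.02 and 0.256 CPM in Scramble siRNA B and 1.69, 1.89 and 1.58 CPM with *Fmr1* siRNA B (1.58, SE 0.485, adjusted p = 0.0223, edgeR), but 1.59, 1.06 and 2.05 CPM in Scramble siRNA A. *Kcna4* rose from 0.527, 0.511 and 0.511 CPM to 1.35, 1.19 and 0.961 CPM with *Fmr1* siRNA B (1.16, SE 0.400, adjusted p = 0.0410, edgeR), while Scramble siRNA A held 0.881, 1.46 and 0.850 CPM. Against the mean of both Scramble siRNAs neither passed. *Kcnh1* fell with *Zfp598* siRNA A, from 1.06, 1.46 and 1.49 to 0.601, 0.427 and 0.356 CPM (-1.45, SE 0.457, adjusted p = 0.0432, edgeR), and this call too was lost with that control (-1.21, adjusted p = 0.0505, edgeR). The calls of *Kcnh6*, *Kcna4* and *Kcnh1* were lost without 3, 7 and 10 of the libraries in turn, and *Kcna4* without *Fmr1* siRNA B replicate 1 stood at 1.05 (adjusted p = 0.120, edgeR).

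Of the two-pore channels, *Kcnk6* showed the largest change of any member. It had 1.06, 0.994 and 1.42 CPM in Scramble siRNA A and 0.395, 0.438 and 0.511 CPM in Scramble siRNA B. With the *Fmr1* siRNAs it was at 0.744, 1.15 and 1.26 CPM (A) and 3.51, 3.64 and 3.23 CPM (B), and with the *Zfp598* siRNAs at 2.26, 0.960 and 0.889 CPM (A) and 1.49, 0.480 and 1.28 CPM (B). The 3 *Fmr1* siRNA B libraries were above the 15 others. Their rise over Scramble siRNA B was 7.57-fold (2.92, SE 0.394, adjusted p = 1.82e-05, edgeR), 2.92 without replicate 1 as well, and 2.25 on the log2 scale over the mean of both Scramble siRNAs. *Zfp598* siRNA B gave 1.26 (SE 0.451, adjusted p = 0.0440) in edgeR, but replicate 2 lay within the Scramble siRNA B range and the value was 0.58 (adjusted p = 0.246, edgeR) against both Scramble siRNAs, and the call was lost without any of 9 libraries in turn (adjusted p up to 0.214, edgeR). With *Fmr1* siRNA A the value was -0.14, so the pooled *Fmr1* call rested on siRNA B. That call was lost without any 1 of 7 libraries, namely Scramble siRNA A replicate 2 and each library of Scramble siRNA B and of *Fmr1* siRNA B (log2 fold change 1.31 to 1.74, adjusted p up to 0.0943 in edgeR). *Kcnk6* had 5 to 52 counts per library.

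*Kcnk3* fell with *Fmr1* siRNA A and *Zfp598* siRNA B. Its levels were 138, 111 and 147 CPM in Scramble siRNA A and 85.9, 86.6 and 84.6 CPM in Scramble siRNA B. *Fmr1* siRNA A gave 65.2, 65.3 and 78.5 CPM and *Fmr1* siRNA B 104, 105 and 125 CPM. *Zfp598* siRNA A gave 91.1, 125 and 136 CPM and *Zfp598* siRNA B 40.6, 47.1 and 44.6 CPM. The *Zfp598* siRNA B libraries were below the 15 others, and those of *Fmr1* siRNA A were below all of Scramble KD. The falls were -0.96 (SE 0.132, adjusted p = 2.13e-05) and -0.92 (SE 0.129, adjusted p = 2.46e-05) in edgeR and passed against the mean of both Scramble siRNAs too (-1.27 and -0.61). The rise of 0.38 with *Fmr1* siRNA B did not, and its call was lost without any of 5 libraries in turn (adjusted p up to 0.163, edgeR). *Kcnk12* (THIK-2) changed by -0.78 with *Fmr1* siRNA A and by -0.82 from Scramble siRNA A to Scramble siRNA B.

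Of the inward rectifiers, *Kcnj12* fell the most of all members with *Fmr1* siRNA A. It had 24.4, 22.7 and 25.4 CPM in Scramble siRNA A, 19.0, 22.5 and 19.2 CPM in Scramble siRNA B and 10.4, 10.1 and 10.4 CPM with *Fmr1* siRNA A. It had 26.8, 29.1 and 29.5 CPM with *Fmr1* siRNA B, 19.1, 23.8 and 27.0 CPM with *Zfp598* siRNA A and 12.2, 13.4 and 12.7 CPM with *Zfp598* siRNA B. The libraries of *Fmr1* siRNA A and *Zfp598* siRNA B lay below the 12 others, and those of *Fmr1* siRNA B above all of Scramble KD. The changes were -1.23 (SE 0.120, adjusted p = 3.47e-07) with *Fmr1* siRNA A, 0.49 (SE 0.113, adjusted p = 0.00306) with *Fmr1* siRNA B and -0.66 (SE 0.119, adjusted p = 3.37e-04) with *Zfp598* siRNA B in edgeR. All 3 passed against the mean of both Scramble siRNAs. *Kcnj14* (Kir2.4) rose with *Zfp598* siRNA B, from 1.12, 0.584 and 1.98 CPM to 2.31, 3.12 and 4.09 CPM (1.34, SE 0.412, adjusted p = 0.0203, edgeR), with no overlap, and by 1.45 over both Scramble siRNAs. Its call was lost without Scramble siRNA B replicate 1 or 2 or *Zfp598* siRNA B replicate 3. *Kcnj9* (GIRK3) rose by 0.60 with *Zfp598* siRNA B and was -0.62 in Scramble siRNA B against Scramble siRNA A, and its rise did not pass against both controls.

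**Figure D3:**
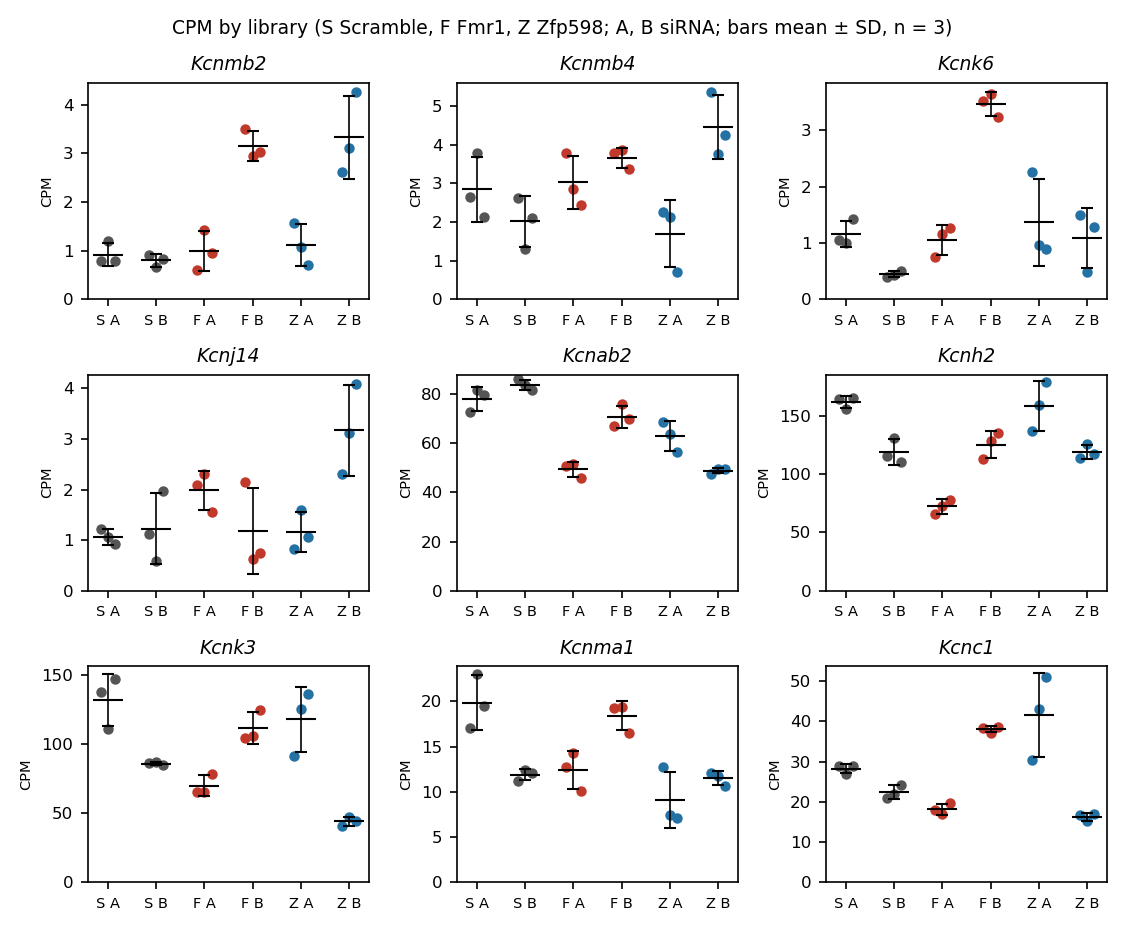
CPM of 9 members in each of the 18 libraries, on linear axes from 0, with the mean and SD of each siRNA (n = 3) as bars. Kcnmb2 is high in both KD groups of siRNA B, Kcnk6 is highest in Fmr1 siRNA B, Kcnab2 is reduced in all KD groups, and Kcnh2 is lowest with Fmr1 siRNA A.

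*Kcnab2* was the member that fell with all 4 KD siRNAs. The Scramble siRNAs gave 72.5, 81.6 and 79.6 CPM (A) and 85.8, 83.5 and 81.7 CPM (B). The *Fmr1* siRNAs gave 50.8, 51.6 and 45.8 CPM (A) and 66.8, 75.7 and 69.6 CPM (B). The *Zfp598* siRNAs gave 68.4, 63.7 and 56.2 CPM (A) and 47.5, 49.5 and 49.6 CPM (B). All 6 *Zfp598* KD libraries were below all 6 of Scramble KD, and among the *Fmr1* KD libraries only replicate 2 of siRNA B reached into their range. The falls with the *Fmr1* siRNAs were -0.66 (SE 0.0857, adjusted p = 9.89e-06) and -0.24 (SE 0.0844, adjusted p = 0.0431) in edgeR. Those with the *Zfp598* siRNAs were -0.31 (SE 0.0863, adjusted p = 0.0245) and -0.78 (SE 0.0860, adjusted p = 1.70e-06) in edgeR. The two-sided exact permutation test of 6 against 6 libraries gave p = 0.00433 for *Fmr1* KD and p = 0.00216 for *Zfp598* KD, both 0.0455 after adjustment over the family. Here too these p-values do not measure the spread between siRNAs. The fall was the larger with siRNA A for *Fmr1* (difference 0.42, SE 0.120, adjusted p = 0.0164, edgeR) and with siRNA B for *Zfp598* (difference -0.47, SE 0.122, adjusted p = 0.00842, edgeR). With *Fmr1* siRNA B the call was the weakest, since it did not pass against the mean of both Scramble siRNAs and was lost without any of 13 libraries in turn, replicate 1 of that siRNA among them (adjusted p = 0.177 without it, edgeR). The pooled calls were lost without 8 libraries in turn for *Fmr1* KD (adjusted p up to 0.0985, edgeR) and without 7 for *Zfp598* KD (up to 0.0832), the Scramble siRNA B libraries and Scramble siRNA A replicate 2 in both cases, while those of *Fmr1* siRNA A and *Zfp598* siRNA B were kept in every case. The *Zfp598* siRNA A call was lost without any of 4 libraries, namely replicates 2 and 3 of that siRNA and of Scramble siRNA A (adjusted p up to 0.0919, edgeR).

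The related *Kcnab1* fell with *Fmr1* siRNA A, from 40.6, 50.5 and 36.3 to 26.3, 28.3 and 23.6 CPM (-0.70, SE 0.122, adjusted p = 2.36e-04, edgeR), below all libraries of the 5 other groups. *Kcnip3* passed in none of the pooled and same-letter comparisons, but in *Zfp598* KD its 6 libraries against 6 gave p = 0.00433 in the two-sided exact permutation test (adjusted 0.0455, difference -0.28 on the log2(CPM + 0.5) scale). That p-value does not measure the spread between siRNAs either. *Kcnip4* rose by 0.76 with *Fmr1* siRNA A, and this did not pass against both Scramble siRNAs or without any of 6 libraries in turn (adjusted p up to 0.145, edgeR).

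Whether the 2 siRNAs of a target had the same effect was tested by interaction contrasts. For *Fmr1* the effect of siRNA B was higher than that of siRNA A in 18 of 40 members (12.2% of all genes) and lower in 1 (9.65%). For *Zfp598* it was higher in 6 (10.1%) and lower in 4 (11.9%). The median difference over the members was 0.67 for *Fmr1* and 0.17 for *Zfp598*, against -0.01 and -0.02 over all genes. Since the lower level of Scramble siRNA B in 11 members enters these contrasts, the *Fmr1* difference contains the difference between the controls. Members that passed with both *Fmr1* siRNAs did so in the same direction in 2 cases (*Kcnab2* and *Kcnh4*) and in opposite directions in 6, among them *Kcnc1*, *Kcnj12*, *Kcnk3* and *Kcnma1*. For *Zfp598* they were 1 (*Kcnab2*) and 2, *Kcnc1* among them. Against the mean of both Scramble siRNAs, *Kcnh4* and *Kcnn1* passed in the same direction with both *Fmr1* siRNAs. Only *Kcnc1* and *Kcnj12* then passed in opposite directions. For *Zfp598*, *Kcnab2* and *Kcnma1* then passed in the same direction and *Kcnc1* in opposite ones. The shares of all genes with such patterns were not counted. *Fmr1* siRNA B and *Zfp598* siRNA B share the Scramble siRNA B libraries as controls. With both of them, *Kcnmb2* (1.96 and 2.03), *Kcnk6* (2.92 and 1.26), *Kcnmb4* (0.85 and 1.13), *Kcnn1* (0.85 and 0.60), *Kcnn3* (0.94 and 0.42) and *Kcnab2* (-0.24 and -0.78) passed in the same direction, and *Kcnc1*, *Kcnj12* and *Kcnk3* in opposite ones. Against the mean of both Scramble siRNAs, of these only *Kcnmb2* passed in the same direction with both KD siRNAs B. *Kcnc1* and *Kcnj12* still passed in opposite ones. How many of all genes passed with both KD siRNAs B was not counted.

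**Figure D4:**
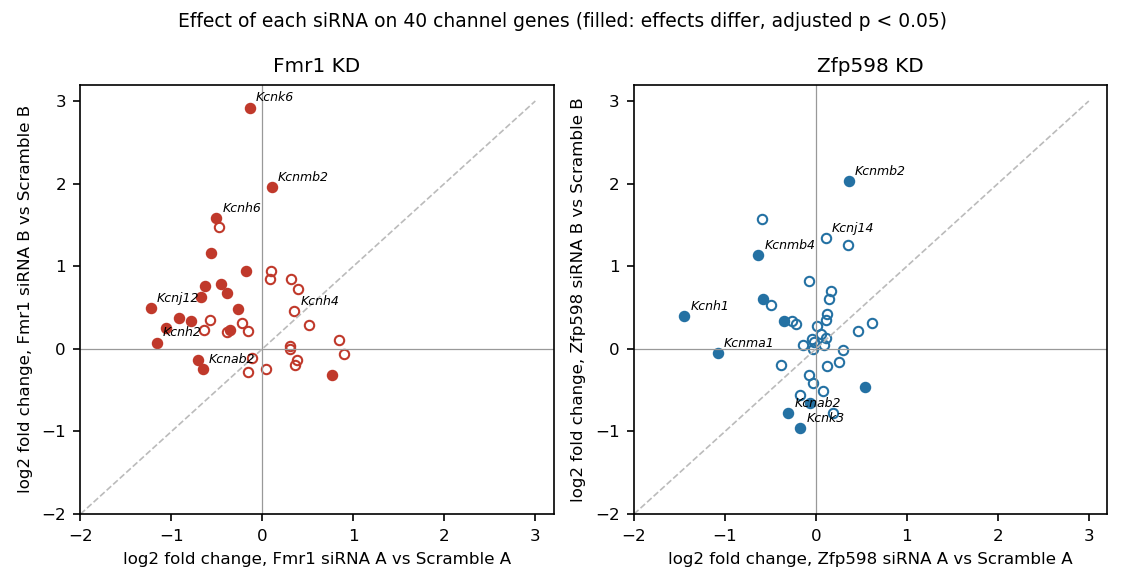
Log2 fold change with siRNA B (vertical) against siRNA A (horizontal) for each target, 1 point per tested member, with the line of equal effects dashed. Filled points are members whose effects differed in the interaction test, 19 for Fmr1 and 10 for Zfp598.

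Outside *Fmr1* siRNA B replicate 1 the 54 members that were not tested had few counts. They held 204 counts in that library, against 12 to 94 in each of the others, and 38 of them had a count there, against 7 to 23. Among them 18 had more counts there than in any other library and 6 had counts in no other (*Kcnb2*, *Kcnh5*, *Kcnip1*, *Kcnj3*, *Kcns3* and *Kcnt2*). By CPM, *Kcnk15* (0.607 there, up to 0.640 elsewhere) and *Kcnh8* (0.270 and up to 0.320), which are among the 18, were higher in another library. Whether weakly counted genes in general had such an excess in *Fmr1* siRNA B replicate 1 was not tested. *Kcnd3* (Kv4.3) had 29 counts there and at most 4 elsewhere, *Kcnip1* (KChIP1) 16 and 0, and *Kcnq3* 9 and at most 3. These 3 genes were chosen after their values were seen. These counts came from 1 library, which also held the stem cell and Y-linked markers. It was highest for other lists as well, such as the astrocyte list (3.31 CPM, at most 1.56 CPM elsewhere). The oligodendrocyte marker *Mog* was at 3.57 CPM there and at most 1.19 CPM elsewhere. The summed oligodendrocyte, fibroblast and immune lists were not highest there, and *Lin28a* of the stem cell list (118 CPM) lay within the range of the other libraries. The part of any of these markers was not tested. Without that library 13 members rose with *Fmr1* siRNA B in place of 16, and 15 in place of 18 were higher in the test between the *Fmr1* siRNAs. The rises of *Kcnn3* (1.03), *Kcnc1* (0.77), *Kcnma1* (0.60), *Kcnj12* (0.54), *Kcnh4* (0.44), *Kcnk3* (0.43) and *Kcnh6* (1.61) with *Fmr1* siRNA B passed without it as well, with adjusted p of at most 0.0454 in edgeR, and *Kcnn1* passed there whichever library was left out (0.76 to 0.99).

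**Figure D5:**
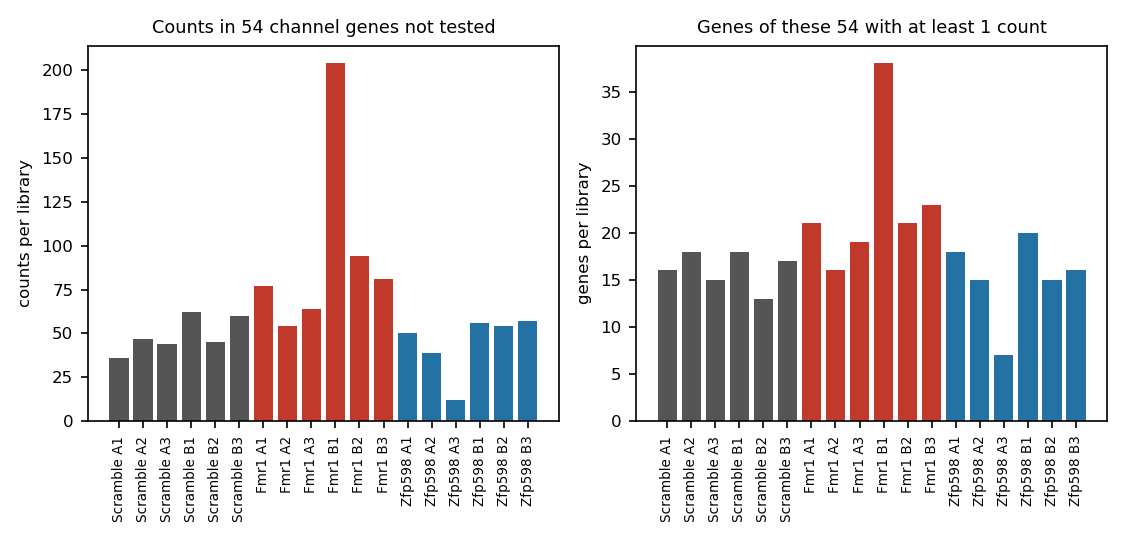
Summed counts (left) and number of genes with at least 1 count (right) over the 54 untested members in each library, as bars from 0. Fmr1 siRNA B replicate 1 holds 204 counts in 38 genes, and the other libraries 12 to 94 counts in 7 to 23 genes.

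A list of 30 other genes of potassium channel complexes and relatives (pacemaker channels, BK γ subunits, Kv4 and Kv1 partners, anchors and calmodulin) gave 23 tested genes. With *Fmr1* siRNA A 7 of these were lower and 1 higher, and the lower ones included the pacemaker channel genes *Hcn2* (-1.19) and *Hcn4* (-0.92). Over all tested genes 13.6% were lower and 10.0% higher with that siRNA. *Hcn4* also differed between the Scramble siRNAs (-0.94 in B against A, adjusted p = 1.26e-04, edgeR). *Fmr1* siRNA B lowered 5 and raised 4 (11.3% and 11.3% of all genes), with *Hcn4* at 0.61 against the lower Scramble siRNA B. *Zfp598* siRNA A lowered 6 (5.64%) and raised 0 (6.30%), and *Zfp598* siRNA B lowered 9 (14.4%) and raised 2 (12.4%). *Lrrc55*, the gene of a BK γ subunit, was the one that passed in a pooled comparison (-0.97 in *Zfp598* KD), and it fell with *Fmr1* siRNA B (-0.98) and *Zfp598* siRNA B (-1.17). With both KD siRNAs B, *Kcnmb2* and *Lrrc55* thus passed in opposite directions. *Lrrc55* stood at 0.60 in Scramble siRNA B against Scramble siRNA A (adjusted p = 0.0551, edgeR), which enters both of its falls. The other tested BK γ gene, *Lrrc26*, passed with neither *Fmr1* siRNA B (-0.07, adjusted p = 0.941, edgeR) nor *Zfp598* siRNA B (0.94, adjusted p = 0.129, edgeR).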

How the data were processed

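RNA-seq libraries of 18 N2A samples (6 siRNA groups, n = 3) were analysed. The authors used TrimGalore for trimming, STAR for alignment (GRCm39) and featureCounts for counting over exons. They deposited raw read counts per gene, and strand and multimapping settings were not given in the sources used here. From these deposited counts, 17901 genes passed edgeR's filterByExpr (minimum count 10, total 15) and were fitted with the quasi-likelihood test of edgeR 4.0.16 (TMM scaling, R 4.3.3) in a model of 3 conditions for the pooled KDs and in one of 6 siRNA groups for the other contrasts, with Benjamini-Hochberg adjustment over all genes at 0.05. Identifiers were matched to GENCODE M39 (54749 of 55414). CPM per kilobase used the union of exons. Permutation tests used log2(CPM + 0.5) and exchanged single libraries, whichever siRNA they had. Scripts were tested on simulated data. Named were the 12 members with the highest Scramble KD level, those past the threshold and over 2-fold in a pooled or same-letter comparison or between the Scramble siRNAs, and *Kcnmb2*. The members and lists were chosen with earlier results of these data known. The study describes the 3 libraries of a siRNA as repeats of the KD in 1 cell line, so p-values measure the spread between these libraries. Intervals of log2 fold changes use the standard error of the edgeR fit, and floors cover counting error only. All replicate pairs differed by more than sampling noise. The chi-square per degree of freedom over the tested genes, which is about 1 under sampling noise alone, was unequal between groups. It reached 125 in *Zfp598* siRNA A and 36.4 in Scramble siRNA A, and at most 12.1 in the other groups. Alternatives were DESeq2 1.42.0, its size factors, other filters, the mean of both Scramble siRNAs as control, the siRNA letter or the replicate number as a term, removal of the most counted feature, and leaving out each library. No other columns of counts were left out. Python 3.11.15 was used for the rest. The results of some members are not reported here, though they enter the fits and the counts.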

Additional observations from a re-analysis of the deposited data

Results flagged for a closer look

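In 6 groups of 6 libraries, 1 library lay far from the 5 others. Chance gives this in about 1 of 20 groups, but 5 of the 6 groups belong to *Kcnd3*, *Kcnip1* and *Kcnq3*, which were chosen for their excess in *Fmr1* siRNA B replicate 1, so their number is not compared with chance. These were *Kcnd3* in Scramble siRNA B replicate 2 (0.219 CPM) and in *Fmr1* siRNA B replicate 1 (1.96 CPM), *Kcnip1* in *Fmr1* siRNA B replicate 1 (1.08 CPM), *Kcnq3* in *Fmr1* siRNA B replicate 1 (0.607 CPM) and in *Zfp598* siRNA A replicate 1 (0.226 CPM), and *Kcnn3* in *Zfp598* siRNA A replicate 1 (43.8 CPM). The values of *Kcnd3* in Scramble siRNA B replicate 2 and of *Kcnq3* in *Zfp598* siRNA A replicate 1 were 3 counts each.

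The effects of the 2 siRNAs of a target differed in edgeR's interaction test for 14 named members in *Fmr1* KD. As log2 differences, siRNA B minus siRNA A, they were 3.06 for *Kcnk6*, 2.09 for *Kcnh6*, 1.86 for *Kcnmb2*, 1.73 for *Kcna4*, 1.72 for *Kcnj12*, 1.40 for *Kcnc1*, 1.31 for *Kcnma1*, 1.31 for *Kcnh3*, 1.30 for *Kcnk3*, 1.24 for *Kcnh2*, 1.13 for *Kcnn3*, 0.59 for *Kcnip3*, 0.57 for *Kcnab1* and 0.42 for *Kcnab2*. For *Zfp598* they differed in 8 named members, by 1.84 for *Kcnh1*, 1.77 for *Kcnmb4*, 1.67 for *Kcnmb2*, 1.03 for *Kcnma1*, -0.47 for *Kcnab2*, -0.59 for *Kcnj12*, -0.79 for *Kcnk3* and -0.99 for *Kcnc1*. The Scramble siRNAs enter these differences, and *Kcnk6*, *Kcnh6*, *Kcnma1*, *Kcnn3*, *Kcnk3* and *Kcnh2* differed between them as well.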

How the results depend on the processing

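None of the 77 calls of named members reversed its direction under the alternatives run for it, whereas the balance of higher and lower members with both *Zfp598* siRNAs and the sign of the median with *Fmr1* siRNA A changed with the control. The pooled *Fmr1* KD count of 2 members higher was 4 with DESeq2 and 4 with the siRNA letter as a second term, and the *Zfp598* KD count of 0 was 1 with each. The 1 member lower in *Fmr1* KD was 0 with no filter on low counts. With no filter, 1 in place of 2 was higher with *Fmr1* siRNA A and 0 in place of 1 was lower with *Fmr1* siRNA B. Among members with a mean of 50 or more counts per library, 1 was higher with *Fmr1* siRNA A, 10 with *Fmr1* siRNA B and 4 with *Zfp598* siRNA B, and the difference between siRNAs was lower in 0 for *Fmr1* and higher in 3 for *Zfp598*, fewer members being tested. With the mean of both Scramble siRNAs as control, the numbers higher and lower were 9 and 0 with *Fmr1* siRNA B, 4 and 2 with *Zfp598* siRNA A, and 3 and 7 with *Zfp598* siRNA B. Same-numbered replicates deviated together only weakly on average (mean r 0.0525 over 45 pairs, -0.0262 for the 90 other pairs). Single pairs ranged from -0.399 to 0.338 and from -0.427 to 0.563, so a shared deviation of some of them is not excluded. With the replicate number as a block, 1 member was higher and 0 lower in *Fmr1* KD and 1 was higher with *Fmr1* siRNA A. Except where a filter or the choice of control sets it, the cause was not tested.

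With each library left out in turn, 1 to 3 members were higher and 0 to 2 lower in *Fmr1* KD, 0 to 1 and 0 to 1 in *Zfp598* KD, 0 to 3 and 8 to 12 with *Fmr1* siRNA A, 11 to 17 and 0 to 1 with *Fmr1* siRNA B, 0 to 2 and 1 to 4 with *Zfp598* siRNA A, and 4 to 8 and 3 to 5 with *Zfp598* siRNA B. Scramble siRNA B was higher in 0 to 1 and lower in 7 to 13. The difference between siRNAs was higher in 14 to 19 and lower in 0 to 1 members for *Fmr1*, and 4 to 7 and 3 to 5 for *Zfp598*. The lowest *Zfp598* siRNA B count (4 higher) came without its replicate 3, and 5 were higher without its replicate 1 or any Scramble siRNA B library. Scramble siRNA B was lower in 7 members without its replicate 1 or 3 or without Scramble siRNA A replicate 1 or 3. The *Zfp598* siRNA A counts fell to 0 higher without its replicate 2 or 3 and to 1 lower without its replicate 2 or Scramble siRNA A replicate 2. DESeq2's size factors and removal of the most counted feature left all 77 calls of named members in place. The removal changes no count of another gene, so it cannot show whether libraries rich in that feature differ in other ways. Members with few counts per library (such as *Kcnmb2*, *Kcnk6*, *Kcna4*, *Kcnh1* and *Kcnh6*) are the ones whose values depth limits.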
